A study of Mus musculus with 28 samples.

Results

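The genes described here encode the proteins of the cytosolic ribosome in mouse cells. They were taken by symbol, as Rpl or Rps with a number and at most 1 further letter, together with Rplp0, Rplp1, Rplp2 and Rpsa. The rule found 83 genes among the 55291 symbols of each expression table, of which 51 belong to the large subunit and 32 to the small subunit. It used no measured value. A gene counted as measured when it reached 10 normalized counts at 36 h, or 1 TPM (a level corrected for transcript length and scaled to the same total in every library) in the other tables, in at least 3 libraries (5 on day 16). On that filter 78 of the 83 were measured at 36 h, 78 at 32 h and 79 on day 16. Rpl3l, Rpl10l, Rpl32l and Rpl39l were outside the filter in every table, and Rps4l was measured on day 16 only. Rpl3l, Rpl10l, Rpl32l, Rpl39l and Rps4l were listed at 0 TPM in all 12 libraries at 32 h.

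RNA was sequenced in 28 libraries of 8 groups. LLC is a mouse lung carcinoma line, labelled wild type. BAY-876 blocks glucose uptake through the transporter GLUT1. In a first culture experiment LLC cells were given vehicle or 200 nM BAY-876 and taken at 36 h, with 3 libraries each. A second experiment had 4 groups of 3 libraries (control, inhibitor alone, TNF alone, both agents). Its cells had 200 nM BAY-876 or none for 24 h and then 20 ng/ml of the cytokine TNF or none for 32 h. The sources used here do not say whether the inhibitor was present during the TNF period. The last experiment holds 5 libraries from tumour cells and 5 from transferred OT1 T cells, sorted on day 16 from subcutaneous LLC-OVA-NGFR tumours of Rag1 knockout mice. OT1 cells are T cells with a transgenic receptor for an ovalbumin peptide, they were activated before transfer on day 9, and hosts without Rag1 form no lymphocytes with rearranged receptors. Mouse age and sort gates are not known here. Whether replicates came from different cultures or mice is not stated in the labels, and each p-value rests on the variation among the libraries of a group, part or all of which may be technical.

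Ribosomal proteins assemble on ribosomal RNA into a small subunit that decodes mRNA and a large subunit that joins amino acids. Their genes are among the most highly expressed of a growing cell, and their mRNAs mostly begin with a cytosine followed by a run of pyrimidines, the 5' terminal oligopyrimidine or TOP motif, through which mTORC1 and LARP1 control translation. A separate set of nucleolar factors, together with RNA polymerase I, makes the ribosomal RNA and builds the subunits.

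The members that stood apart from the rest of the family are shown by the bases around their annotated start, since a TOP motif would lie there. The windows are from the RefSeq promoter table on GRCm38.p6, 25 bases up to and 25 bases after the start on the sense strand. Capitals mark the longest run of C followed by 6 or more C or T that was found within 30 bases of the start. Where runs tie in length, as for Rps27l, the first is marked. Another listed start of Rps27l, with its window at chr9:66946388-66946437, had no such run and is not shown. Rps27, the paralog of Rps27l, is added for comparison.

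Rps15a, chr7:118116123-118116172, minus strand: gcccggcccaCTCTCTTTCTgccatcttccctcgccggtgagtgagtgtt

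Rpl13a, chr7:45128721-45128770, minus strand: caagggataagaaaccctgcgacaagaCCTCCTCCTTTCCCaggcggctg

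Rps13, chr7:116334166-116334215, minus strand: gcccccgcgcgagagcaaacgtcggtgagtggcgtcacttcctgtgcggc

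Rpl31, chr1:39367826-39367875, plus strand: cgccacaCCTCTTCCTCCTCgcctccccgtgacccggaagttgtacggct

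Rps27l, chr9:66946061-66946110, plus strand: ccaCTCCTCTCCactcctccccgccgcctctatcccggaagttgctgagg

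Rps27, chr3:90213624-90213673, minus strand: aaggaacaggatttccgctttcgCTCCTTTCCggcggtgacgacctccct

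In the whole family, 61 of the 83 genes were matched in that table. A pyrimidine run (C followed by 6 or more C or T, sense strand, within 30 bases of the start) was found for 38 of 61, or 62.3%, against 29.7% of the 27025 genes in the table. The ETS-type sequence CCGGAAG, searched on both strands of the 300-base promoter window, was found for 25 of 61, or 41.0%, against 9.93% of genes. A run can overlap the reverse complement of CCGGAAG. These matches describe letters in a window and show no factor binding.

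Within LLC cells the family spanned a wide range of levels and kept nearly the same order in every group. In control cells at 32 h Rps2, a small subunit protein near the mRNA entry, had the highest level at 9458 ± 36.7 TPM (SD, n = 3). Among the next highest were Rplp1 (5418 TPM), Rplp0 (5310) and Rpl13 (4764). At the low end, among measured genes, stood Rpl27a (743 TPM), Rpl21 (716), Rps27l (650), Rpl37 (612) and Rpl6l, annotated as a processed pseudogene (22.9). The rank correlation of mean TPM over 78 members was 0.988 to 0.995 between the 4 culture groups, and 0.984 between control LLC cells and tumour cells of day 16. Between tumour and OT1 T cells it was 0.834. These correlations are over genes that share libraries and transcript lengths, and are descriptions. Small subunit genes summed to 0.725 to 0.742 of the large subunit sum across the 12 libraries of the 32 h experiment.

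Library facts that touch these genes were few. Values of 36 h are normalized counts and not per length, so their shares cannot be set beside TPM shares. Among the 36 h libraries, replicate 1 of BAY-876 stood apart in the family. On day 16 the summed level of 18 myeloid markers was 142 to 278 TPM in tumour libraries and 1729, 8353, 3771, 5273 and 23548 TPM in OT1 libraries 1 to 5, with none of the 18 markers at 0 in any OT1 library. The 10 T cell markers summed to 4785 to 7913 TPM in OT1 libraries and to 4.30 to 9.02 TPM in tumour libraries, with no defining marker at 0 in the former. The 10 tumour cell markers summed to 1952 to 2138 TPM in tumour libraries and 72.1 to 245 TPM in OT1 libraries. Of these, Krt19 and Epcam were at 0 in tumour libraries 1 to 4, and Epcam was at 0.33 to 0.91 TPM in OT1 libraries. By the sums both sorts held their labelled cells, with myeloid RNA in every OT1 library. In OT1 libraries 2 and 5 the myeloid sum was above the T cell sum (8353 against 7512 and 23548 against 4785 TPM). In cultured LLC cells at 32 h T cell markers summed to at most 1.40 TPM.

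The summed share of the family was higher with BAY-876 in both culture experiments. At 36 h it was 5.89, 5.90 and 5.92% of normalized counts with vehicle and 7.60, 6.34 and 6.40% with BAY-876, a difference of 0.878 percentage points. The groups did not overlap, and replicate 1 of BAY-876 was the highest by far: without it the difference was 0.466 points. At 32 h control libraries gave 17.9, 17.6 and 17.9% of TPM and BAY-876 libraries 19.3, 19.5 and 19.7%, a difference of 1.69 points against a pooled SD of 0.188. With TNF alone the share was 18.1, 18.4 and 18.2%, above control by 0.446 points without overlap. With both agents it was 19.0, 19.5 and 20.2%. That was 1.28 points above TNF alone without overlap, and 0.0305 points above BAY-876 alone, where the groups overlapped.

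On day 16 the share did not separate the cell types. Tumour libraries gave 22.1, 19.7, 20.2, 20.7 and 17.0% of TPM, and OT1 libraries 20.8, 19.4, 21.9, 19.2 and 14.3%. OT1 cells were 0.821 points lower on average, with a pooled SD of 2.45 points, and the groups overlapped. OT1 library 5, the lowest, also had the highest myeloid sum, and the part of myeloid RNA in its share was not tested. Without OT1 library 5 the difference turned to 0.391 points higher in OT1 cells. A share is relative to all other RNA, and in bulk samples fewer cells of a type and less RNA per cell cannot be told apart.

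**Figure D1:**
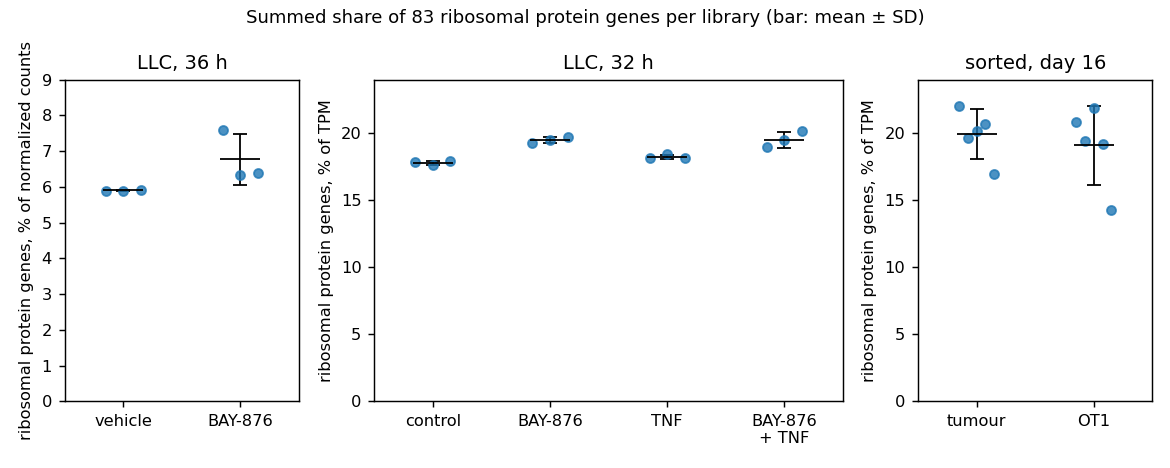
Summed share of the 83 genes in each library (points) with group mean and SD (bars), in % of normalized counts at 36 h and % of TPM at 32 h and on day 16. Every BAY-876 library lies above its control libraries, and on day 16 the tumour libraries (17.0 to 22.1%) and OT1 libraries (14.3 to 21.9%) overlap.

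At 36 h the whole family moved one way with BAY-876. All 78 measured members had a positive difference, with a median of 0.24 on the log2 scale against -0.00 for all 12937 genes. By limma with Benjamini-Hochberg adjustment, 27 of 78 rose and none fell, where 14.4% of all genes passed in either direction, 7.34% higher and 7.10% lower. Groups did not overlap for 71 of 78, against 36.7% of all genes. Rps29, a small subunit protein, had the highest difference: 3712, 3728 and 3687 normalized counts with vehicle against 6503, 4632 and 4754 with BAY-876. All 3 treated libraries were above all 3 vehicle libraries, and replicate 1 was the highest (1.41-fold, log2 0.50 ± 0.11 SE, limma adjusted p = 0.0221).

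Further large differences at 36 h, chosen after their values were seen, were those of Rpl13a (0.46, limma adjusted p = 0.0181) and Rps12 (0.39, adjusted p = 0.0148). Rpl13a is a large subunit protein also known for a role outside the ribosome in silencing inflammatory mRNAs. Of the P stalk, the flexible arm of the large subunit that recruits elongation factors, Rplp2 rose by 0.47 (adjusted p = 0.0238) and Rplp1 by 0.38 (adjusted p = 0.0372). Rplp0, the stalk base, had 0.09 (adjusted p = 0.306) with overlapping groups. The members at the low end were Rpl15 (0.09) and Rplp0, neither past the threshold.

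The 36 h count rested on single libraries. Without replicate 1 of BAY-876 it was 55 higher and none lower, at a smaller median of 0.14. Without vehicle replicate 1, 2 or 3 it was 1, 0 and 0, with a median of 0.24 each time. No member left the family at 36 h, that is, differed from the median member by 0.3 log2 or more at a limma adjusted p under 0.05 over all genes. Of all genes 13.7% passed that rule, 1.17% above and 12.6% below. Relative to the median member, 8 of 78 had an unadjusted p under 0.05, none of them past 0.3. Rps29 (0.29) and Rplp2 (0.26) came nearest.

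At 32 h members again rose with BAY-876. Of 78 members 54 rose and none fell by limma, against 37.4% of 12780 genes passing in either direction, 11.5% higher and 25.8% lower. The median member difference was 0.13, against -0.09 for all genes, and groups did not overlap for 65 of 78, against 50.9% of all genes. Both subunits took part, with 24 of 31 small subunit genes and 30 of 47 large subunit genes among the 54. Rps12, a small subunit protein, had 2082, 1983 and 2001 TPM in control and 2483, 2564 and 2634 TPM with BAY-876. The lowest treated library was above the highest control library (1.27-fold, log2 0.34 ± 0.04 SE, limma adjusted p = 8.98e-05).

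Rpl12, a large subunit protein at the foot of the P stalk, had 1579, 1610 and 1627 TPM in control and 1978, 1943 and 1975 TPM with BAY-876, a difference of 0.29 without overlap. Rps2, the most abundant member, had 9440, 9500 and 9435 TPM in control and 9303, 9459 and 9428 TPM with BAY-876, with overlapping groups. Of the P stalk, Rplp0 rose by 0.09 and Rplp1 by 0.14, and Rplp2 had 0.08 (adjusted p = 0.302). No member left the family, where 34.5% of all genes did, 4.39% above and 30.1% below. Rps21 (0.25 above the median member) came nearest, and 28 of 78 had an unadjusted relative p under 0.05, none of them past 0.3.

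Over TNF-treated cells the response to BAY-876 was of the same kind. Between BAY-876 with TNF and TNF alone, 35 of 78 rose and none fell by limma, where 34.0% of all genes passed in either direction, 10.4% higher and 23.6% lower. The median member difference was 0.09, against -0.08 for all genes, and groups did not overlap for 40 of 78, against 45.0% of all genes. Rpl12 had 1567, 1554 and 1542 TPM with TNF and 1963, 1969 and 1947 TPM with both agents, the highest difference of the family at 0.33 ± 0.02 SE (1.26-fold, limma adjusted p = 1.3e-06). Rps12 rose by 0.28. Rplp0, Rplp1 and Rplp2 rose by 0.18, 0.14 and 0.18, and Rplp2 had overlapping groups. No member left the family, where 27.2% of all genes did, 4.67% above and 22.6% below, and 32 had an unadjusted relative p under 0.05, none past 0.3.

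The comparisons of BAY-876 without and with TNF share no library, so their member values can be set side by side. Across 78 members the differences correlated at Pearson r = 0.767 and Spearman rho = 0.698, with the same sign in 70. Between the 36 h and the 32 h experiments, which also share no library, the correlation was r = 0.515 and rho = 0.518, with the same sign in 73 of 78. Both are descriptions across genes, which are not independent. The interaction (how far the BAY-876 difference changed when TNF was present) passed for 0 of 78 members by limma, with 7 at an unadjusted p under 0.05. In all genes 1.56% passed, 0.736% higher and 0.822% lower. No member left the family in it, with 4 at an unadjusted relative p under 0.05, where 1.03% of all genes did, 0.618% above and 0.407% below. Its median over the members was -0.04, within a range of -0.16 (Rps15a) to 0.10 (Rplp2).

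**Figure D2:**
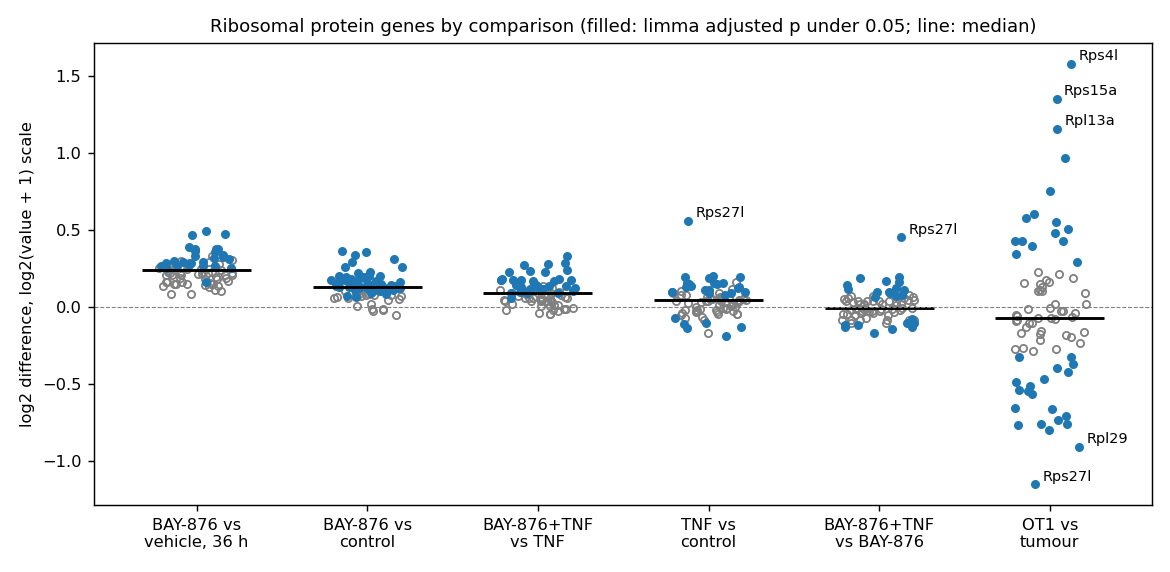
Log2 difference of each measured member (points) in 6 comparisons on the log2(value + 1) scale; filled points passed limma at an adjusted p under 0.05 and lines are medians. Medians are 0.24, 0.13 and 0.09 for BAY-876, 0.04 and -0.00 for TNF, and OT1 against tumour cells runs from -1.15 to 1.35, with Rps4l, which passed the filter only through OT1 libraries, at 1.58.

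With TNF the median member difference was close to 0 and few members stood out. Of 78 members 21 rose and 6 fell against control by limma, where 45.6% of all genes passed in either direction, 19.4% higher and 26.1% lower. With median-of-ratios scaling 29 rose and 2 fell. The median member difference was 0.04, against -0.06 for all genes, and groups did not overlap for 45 of 78, against 55.9% of all genes. Of the 21 that rose, 18 were among the 47 large subunit genes and 3 among the 31 small subunit genes. The medians of the subunits were close, at 0.06 and 0.04, and a split by subunit was not tested. Rpl7a, Rpl29 and Rpl8 each rose by 0.20, and Rpl27 by 0.19. Among those that fell were Rps20 by 0.14 and Rplp0 by 0.13. Rplp1 had 0.04 (adjusted p = 0.357) and Rplp2 had 0.09 (adjusted p = 0.202).

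Rps27l left the family with TNF. It encodes a near relative of the small subunit protein Rps27 and is known as a p53 target in human cells. It had 663, 639 and 650 TPM in control, 655, 698 and 684 TPM with BAY-876, 983, 978 and 921 TPM with TNF, and 889, 883 and 1025 TPM with both agents. Every library with TNF lay above every library without it. Against control it rose 1.48-fold with TNF (log2 0.56 ± 0.05 SE, limma adjusted p = 5.3e-06) and was 0.49 above the median member. Against BAY-876 alone the combination was 1.37-fold higher (log2 0.45 ± 0.05 SE, limma adjusted p = 3e-05) and 0.42 above the median member. It was the only member past 0.3 in either comparison, where 36.6% of all genes passed the rule with TNF against control (9.84% above, 26.7% below) and 33.6% in BAY-876-treated cells (11.4% above, 22.3% below). In BAY-876-treated cells the nearest within the family was Rpl10, 0.20 below the median member.

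Rps27 itself did not follow. It had 2903, 2797 and 2892 TPM in control and 2785, 2992 and 2739 TPM with TNF, with overlapping groups. Rps27l therefore made up 18.5 ± 0.137% (SD, n = 3) of the summed TPM of the pair in control, 18.1 ± 0.136% with BAY-876, 25.3 ± 0.730% with TNF and 24.5 ± 0.844% with both. At 36 h, in normalized counts, Rps27l had 1595, 1505 and 1463 with vehicle and 1884, 1631 and 1761 with BAY-876 (log2 0.21, limma adjusted p = 0.0810), next to the median member. In a list of 10 genes of nucleolar stress and p53, 7 rose and 1 fell with TNF, where 45.6% of all genes passed in either direction. Trp53, which encodes p53, rose by 0.78, Bbc3 by 0.70 and Bax by 0.28, both pro-apoptotic, and Sesn1 fell by 0.72. With BAY-876, 3 genes of that list rose and none fell at 36 h, where 14.4% of all genes passed. At 32 h 2 rose and 3 fell with BAY-876, where 37.4% passed. A link between the list and Rps27l was not tested.

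**Figure D3:**
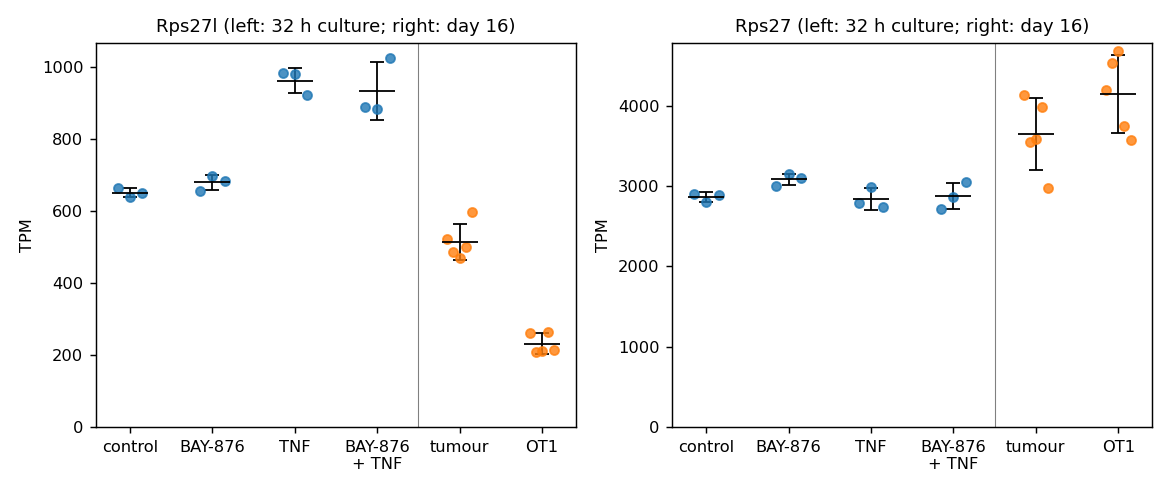
TPM of Rps27l and of its paralog Rps27 in each library (points) with group mean and SD, 3 libraries per group at 32 h and 5 on day 16. Rps27l is at 883 to 1025 TPM in every library with TNF and 639 to 698 TPM without, and at 209 to 266 TPM in OT1 cells.

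In cells that already had BAY-876, TNF left the family mixed: 15 members rose and 9 fell by limma, where 44.2% of all genes passed in either direction, 19.3% higher and 24.8% lower. With median-of-ratios scaling 18 rose and 2 fell, and without replicate 3 of BAY-876 with TNF 9 rose and 15 fell. Groups did not overlap for 27 of 78, against 52.6% of all genes. Relative to the median member, 34 of 78 had an unadjusted limma p under 0.05, 1 of them past 0.3. Rplp2 rose by 0.19 and Rpl38 by 0.19. Rpl10 fell by 0.17. Rplp0 had -0.04 (adjusted p = 0.244) and Rplp1 had 0.04 (adjusted p = 0.346). The 2 TNF comparisons share no library, and their member differences had r = 0.848 and rho = 0.823 over 78 genes, or r = 0.783 without Rps27l.

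The genes that build ribosomes and those that encode ribosomal proteins had opposite directions with BAY-876 at 36 h, and both lists were mostly higher with it at 32 h. Of 34 ribosome biogenesis genes, 25 fell and none rose with BAY-876 at 36 h, while 27 ribosomal protein genes rose. Nop58, a core protein of the particles that methylate ribosomal RNA, fell by 0.58. The RNA helicase gene Ddx21 fell by 0.51, Nolc1 by 0.56 and Nop2 by 0.56. Of 14 RNA polymerase I genes 7 fell and none rose, including the subunit gene Polr1b by 0.53 and the initiation factor gene Rrn3 by 0.36. These counts stand beside 7.34% of all genes higher and 7.10% lower. At 32 h 19 biogenesis genes rose and 3 fell with BAY-876, and of the RNA polymerase I genes 2 rose, 1 fell and 11 did not pass, where 11.5% of all genes rose and 25.8% fell. Gnl3 rose by 0.46, Nob1 by 0.40 and Nvl by 0.52. The 36 h and 32 h tables were normalized separately and the difference between them was not tested.

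With TNF 33 of 34 biogenesis genes rose and none fell, where 19.4% of all genes rose and 26.1% fell. Their median was 0.68, while the ribosomal protein median was 0.04. Rrp9 had 121, 112 and 116 TPM in control and 244, 248 and 249 TPM with TNF, a rise of 1.08. Nucleolin (Ncl) rose by 0.64, Ddx21 by 0.75 and Nop56 by 0.68. Of the RNA polymerase I genes 10 of 14 rose and none fell, and the largest subunit gene Polr1a rose by 0.91. The 78 mitochondrial ribosomal protein genes, which serve the other ribosome of the cell, had 51 higher and 3 lower with TNF. Of 19 translation factor genes whose mRNAs carry TOP motifs, 8 rose and 3 fell. Npm1 rose by 0.42 and Pabpc4 by 0.39, and Tpt1 fell by 0.34. In BAY-876-treated cells TNF gave 33 biogenesis genes higher and none lower, where 19.3% of all genes rose and 24.8% fell. Of the 16 genes of the mTORC1, LARP1 and Myc list 3 rose and 5 fell with TNF against control. That is near the 45.6% of all genes that passed in either direction. Differences in the list ran from -1.68 to 0.96, the highest being that of Myc.

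For the remaining lists under BAY-876, translation factors gave 4 higher and 0 lower at 36 h and 6 higher and 3 lower at 32 h. Tpt1 rose by 0.37 and 0.31 in the respective experiments. The 78 mitochondrial ribosomal protein genes gave 1 higher and 3 lower at 36 h, and 17 higher and 12 lower at 32 h. Of all genes 7.34% were higher and 7.10% lower at 36 h, and 11.5% higher and 25.8% lower at 32 h. In either direction 14.4% and 37.4% of all genes passed. The 32 h total is thus near the background, with the balance of directions the other way. Of the 16 genes of the mTORC1, LARP1 and Myc list, 4 rose and 5 fell at 36 h, and 8 rose and 4 fell at 32 h. In that list Sesn2 and Ddit4, stress-induced inhibitors of mTORC1, rose by 1.24 and 1.03 at 36 h and by 1.03 and 0.60 at 32 h. Deptor, of the same list, went the other way from Sesn2 and Ddit4 at 36 h, with 1844 to 1935 normalized counts with vehicle and 1313 to 1514 with BAY-876. In the presence of TNF, BAY-876 gave 16 biogenesis genes higher and 1 lower, where 10.4% of all genes were higher and 23.6% lower.

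**Figure D4:**
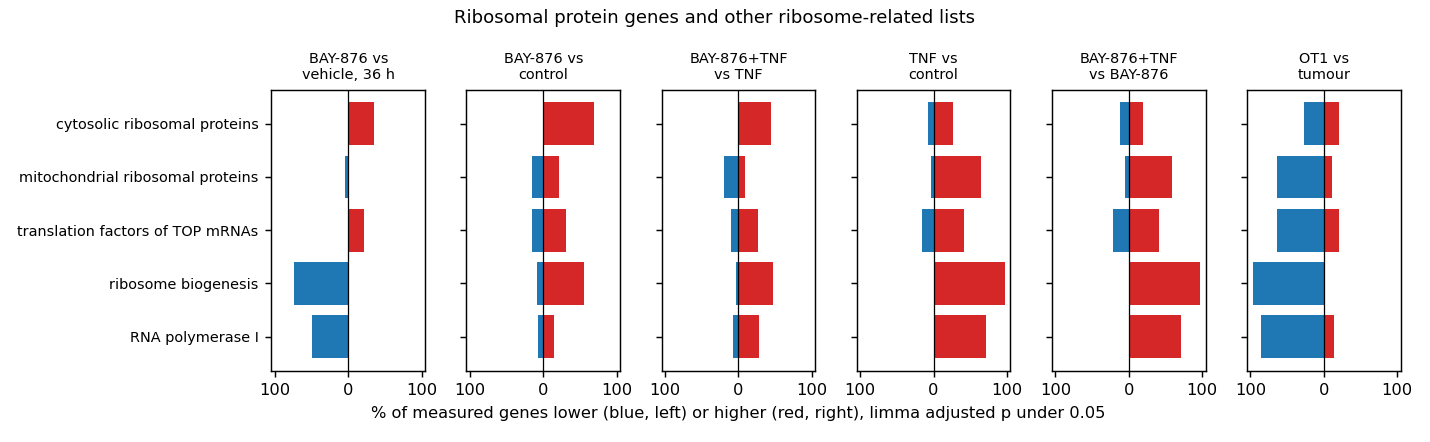
Percent of measured genes of 5 lists that were lower (blue, left) or higher (red, right) by limma at an adjusted p under 0.05, in 6 comparisons. At 36 h 27 of 78 cytosolic ribosomal protein genes are higher and 25 of 34 biogenesis genes lower, and in OT1 against tumour cells 33 of 34 biogenesis genes are lower.

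Single members differed between OT1 and tumour cells, though less often than genes at large, and the summed shares, which had no test, overlapped. By limma 16 of 79 members were higher in OT1 cells and 21 lower, where 74.5% of 13511 genes passed in either direction, 30.1% higher and 44.4% lower. The split depended on scaling: with median-of-ratios scaling it was 27 higher and 10 lower, and the median of all genes was then 0.05 instead of -0.21. Without OT1 library 5 it was 23 and 21. The difference of each member from the median member does not depend on a factor common to a library. By that measure 35 of 79 left the family, 16 above and 19 below, where 65.9% of all genes passed the same rule, 28.1% above and 37.8% below. It was 33, with 16 above and 17 below, without the OT1 libraries with the 3 highest myeloid sums. Just outside lay Rpl27a (0.29) and Rpl15 (0.28), and just inside Rpl36 (-0.31) and Rpl35 (-0.33). Groups did not overlap for 24 of 79 in TPM, against 63.1% of all genes.

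Rpl13a was the most abundant member in OT1 cells. It had 5390, 4681, 5014, 5245 and 4146 TPM in tumour libraries and 11103, 11234, 12805, 10590 and 9022 TPM in OT1 libraries. Every OT1 library was far above every tumour library, 2.23-fold in all (log2 1.16 ± 0.12 SE, with an adjusted p of 4.4e-06 by limma) and 1.22 above the median member. Rpl13a is encoded at chr7:45125558-45128761 on GRCm38, minus strand.

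Rps15a, a small subunit protein gene at chr7:118104372-118116188, minus strand, had 1327, 1099, 1202, 1333 and 772 TPM in tumour libraries. OT1 libraries had 3312, 3298, 3654, 2690 and 1816 TPM, all above the tumour libraries, and library 5 was the lowest in both groups. The difference was 2.55-fold (log2 1.35 ± 0.21 SE, limma adjusted p = 8.9e-05) and 1.41 above the median member. Rps13, at chr7:116331505-116334195, minus strand, had 1085, 1048, 1019, 1010 and 872 TPM in tumour libraries and 1884, 1795, 2002, 1578 and 1301 TPM in OT1 libraries, without overlap and 0.82 above the median member.

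Rps27l, at chr9:66946086-66949516, plus strand, was the member farthest below the family. It had 523, 486, 469, 500 and 597 TPM in tumour libraries and 262, 209, 211, 266 and 214 TPM in OT1 libraries. The groups did not overlap, and the level was 2.22-fold lower in OT1 cells (log2 -1.15 ± 0.10 SE, limma adjusted p = 7.8e-07), 1.09 below the median member. Rps27 had 4130, 3551, 3585, 3983 and 2974 TPM in tumour libraries and 4187, 4534, 4682, 3740 and 3575 TPM in OT1 libraries, which overlapped. Rps27l was 12.5 ± 2.36% (SD, n = 5) of the pair in tumour cells and 5.37 ± 1.00% in OT1 cells.

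Rpl29, a large subunit protein gene at chr9:106429454-106431568, plus strand, had 4442, 4068, 4032, 3952 and 3312 TPM in tumour libraries and 2313, 2190, 2370, 2135 and 1602 TPM in OT1 libraries. The groups did not overlap (1.88-fold lower, log2 -0.91 ± 0.13 SE, limma adjusted p = 4.1e-05). Rpl31, a large subunit protein gene at chr1:39367842-39371911, plus strand, had 2759, 2357, 2541, 2695 and 2053 TPM in tumour libraries and 1615, 1427, 1577, 1555 and 1010 TPM in OT1 libraries, again without overlap and 0.74 below the median member. Rps2, the highest member in tumour cells at 7346 ± 590 TPM (SD, n = 5), was at 4402 ± 878 TPM in OT1 cells.

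Rps4l, annotated as a transcribed processed pseudogene, was listed at 0, 1.01, 0, 0.44 and 1.77 TPM in tumour libraries and at 2.25, 4.13, 2.76, 3.09 and 6.44 TPM in OT1 libraries. It passed the filter only through the OT1 libraries, so its place among the members that left the family says little. Of the P stalk, Rplp2 was higher in OT1 cells (1112 ± 89.3 against 1469 ± 159 TPM, log2 0.40, limma adjusted p = 0.00277) and Rplp1 lower (6005 ± 507 against 4361 ± 536 TPM, log2 -0.47, adjusted p = 0.00312), while Rplp0 had 0.10 (adjusted p = 0.492) and overlapped. Rpl39l, a paralog known from testis, was at 0 TPM in every tumour library and at 0.28 to 2.21 TPM in OT1 libraries, below the filter.

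**Figure D5:**
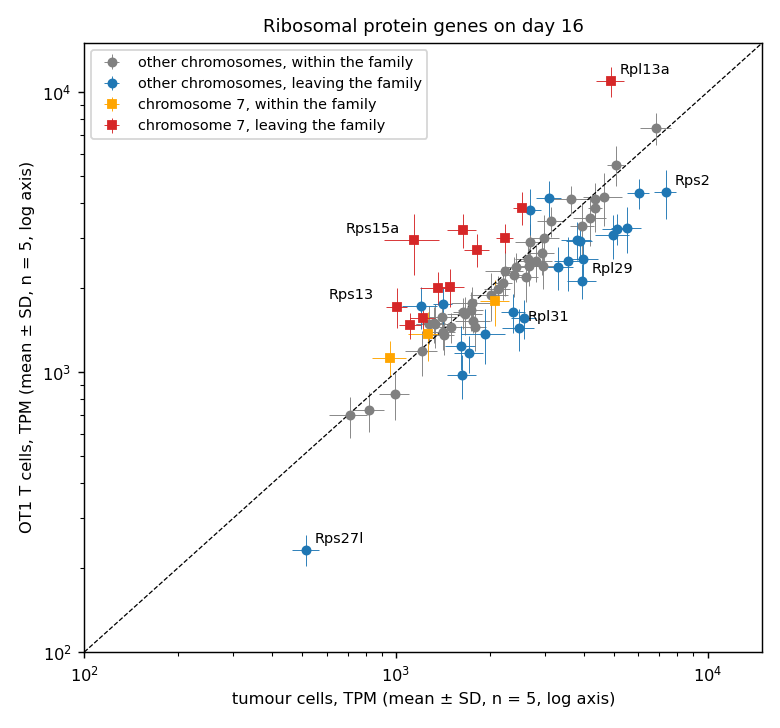
Mean TPM of the measured members above 100 TPM in tumour cells (x) and OT1 T cells (y), with SD over 5 libraries, on log axes; squares are genes of chromosome 7 and the dashed line marks equal levels. Rpl13a stands at 4895 against 10951 TPM and Rps27l at 515 against 232 TPM, and the chromosome 7 genes that leave the family all lie above the line.

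The members that left the family upward on day 16 lay mostly on chromosome 7, a pattern looked for after their values were seen. Chromosome 7 holds 14 of the 79 measured members. Of these 11 left the family upward and none downward, among them Rps15a, Rpl13a, Rps13, Rpl18, Rps3, Rps16, Rps9, Rplp2 and Rps19. Rpl28 and Rpl27a, also on chromosome 7, did not leave it. On all other chromosomes together 5 of 65 left upward and 19 downward. The median difference from the median member was 0.55 on chromosome 7 and -0.06 elsewhere. Chromosome 7 genes made up 12.3 to 12.6% of the family's summed TPM in tumour libraries and 20.2 to 21.7% in OT1 libraries, of which library 5 with the highest myeloid sum had 21.7%, and 11.9 to 12.5% in the LLC libraries of 32 h.

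Genes of chromosome 7 outside the family moved the same way. Of 985 other measured genes there, 48.0% were higher in OT1 cells and 25.7% lower, with a median of 0.29. Of 12199 other genes elsewhere 28.6% were higher and 46.2% lower, with a median of -0.25. Chromosome 14 was the only other one with a median above 0 (0.21), and the lowest medians were those of chromosome 3 (-0.62), chromosome 1 (-0.55) and chromosome 12 (-0.52). Of the 2 members on chromosome 14, Rps24 left upward. On chromosome 3 neither of 2 members left, on chromosome 1 2 of 3 left downward and on chromosome 12 both did. The other members that left upward lay on chromosomes whose other genes had medians below 0. They were both members of chromosome 6, Rpl32 and Rps4l (other genes -0.09), 1 of 2 on chromosome 18 (-0.12) and 1 of 5 on chromosome 5 (-0.06). On chromosome X Rpl10, Rpl36a and Rps4x left downward and Rpl39 did not. These are counts by position and carry no test.

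Other genes of the ribosome that the symbol rule leaves out gave the following values. Rpl22l1, a paralog of Rpl22, had 216, 188, 158, 173 and 137 TPM in tumour libraries and 404, 385, 393, 368 and 222 TPM in OT1 libraries, without overlap (log2 1.00, limma adjusted p = 0.00025). Rpl22, itself a member, fell by 0.57. Rpl22l1 made up 9.19 ± 0.745% (SD, n = 5) of the pair in tumour cells and 23.1 ± 2.01% in OT1 cells. Rpl7l1, a paralog of Rpl7, had 127, 134, 143, 121 and 152 TPM in tumour libraries and 57.9, 57.7, 60.5, 54.3 and 55.9 TPM in OT1 libraries, a fall by 1.22. With TNF Rpl7l1 rose by 0.58, with or without BAY-876. Rpl36al and Rps3a1 were lower in OT1 cells by log2 -0.58 and -0.48, and Fau and Rack1 did not pass.

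Most ribosome-building genes were lower in OT1 cells, where 30.1% of all genes were higher and 44.4% lower. Of 34 biogenesis genes 33 fell and none rose, at a median of -1.24. Nmd3, the export adaptor of the large subunit, fell by 1.63, Nop16 by 1.88, Rrp9 by 2.06 and Rrs1 by 1.99. Of the RNA polymerase I genes 12 fell and 2 rose, and Polr1a fell by 1.96. Of 78 mitochondrial ribosomal protein genes 50 fell and 9 rose, and of 19 translation factors 12 fell and 4 rose, with Npm1 lower by log2 -1.36 and Eif3f higher by 0.86. The share of mitochondrial genes that passed in either direction was close to the 74.5% of all genes. Myc fell by 2.40. The nucleolar stress and p53 list gave 6 higher and 2 lower, with Mdm4 higher by 1.33 and Ccng1 by 1.68.

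Reads of a ribosomal protein gene can be shared with its processed copies. Of 80 members with an annotated coding sequence in GENCODE M21, 71 had at least 1 other transcript with 95% identity or more over at least 80% of that sequence. The median was 5 copies and Rpl21 had the most, 57. How reads were divided among them in the deposited tables was not stated in any source at hand, so the level of such a gene is uncertain. Rps27l, Rps3 and Rps19 had no such copy. Copies of Rpl13a were at 0.0294% of its level in tumour cells and 0.0255% in OT1 cells, those of Rps15a at 7.09 and 6.54%, those of Rps13 at 18.2% in both, and those of Rpl12 at 37.5 and 38.3%. Adding the copies to each member shifted its log2 ratio of OT1 to tumour means by at most 0.0467.

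Of the members above the family on day 16, 10 of 16 belonged to the small subunit, and of those below 8 of 19. A pyrimidine run was found for 7 of the 11 above that had a promoter in the table, for 8 of 13 below and for 21 of 33 that stayed. CCGGAAG was found for 1 of 11, 7 of 13 and 16 of 33. These are descriptions of small numbers.

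The authors' deposited tables of the 32 h experiment, which rest on a scaling of their own, hold 78 of the members. With BAY-876 against control, 72 were higher and none lower in the authors' deposited table (31.6% of genes past the same threshold in either direction), and all 54 called here were among them with the same sign. For TNF against control the authors' deposited table gave 44 higher and 1 lower (37.1% of genes), with 22 calls shared. Small subunit genes such as Rps12 (0.18), Rps26 (0.16) and Rps14 (0.16) were among the 44. For the combination the authors' deposited tables gave 15 higher and none lower against BAY-876 (36.3% of genes), and 54 higher and none lower against TNF (27.9% of genes). Rps27l was at a log2 fold change of 0.64 ± 0.06 (SE) for TNF in the authors' deposited table.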

How the data were processed

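Deposited values of 28 libraries were used. For 36 h they are counts per gene that the authors normalized with DESeq2, as the table's name states: a normalized count signal, not whole reads. For 32 h and day 16 the authors deposited TPM, whose total is the same in every library, so read depth is unknown and no counting interval is given. Log2 fold changes and adjusted p-values of 32 h comparisons were deposited by the authors as well. STAR 2.6.1d, Salmon 0.14.1 (36 h) or 0.13.1, DESeq2 1.34.0 and mm10 appear in the submitters' processing notes, without the role of each. RNA was extracted with Trizol, per the labels' protocols. Of the 32 h values, 24 columns matched no label and were left unused. In 2 libraries of BAY-876 plus TNF the treatment label names another compound number than the title, which set the group.

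The analysis used log2(value + 1), a scale that understates changes of low genes. In R 4.3.3, limma 3.58.1 with a mean-variance trend was run on all measured genes of an experiment, with the 12 libraries of 32 h together, Benjamini-Hochberg adjustment and a threshold of 0.05. A second run used the difference from the median member of each library. A member left the family at an adjusted p under 0.05 and 0.3 log2 or more. The summed share is over all 83 genes and has no test. Copies were found with blastn 2.17.0. Alternatives were other pseudocounts, filters and scalings, a replicate block, only the groups compared, other sums for the share, and each library left out.

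Named genes are up to 8 members that left the family in a comparison, the 5 highest and 5 lowest in TPM, the P stalk, paralogs, ribosomal proteins outside the rule, and up to 4 genes with the smallest p of each other list. Other names were chosen after their values were seen: the largest and smallest member differences in culture, the members listed by chromosome and some genes of the other lists. The members and lists were chosen with earlier results of these data known. Replicate numbers recur across groups without a stated link between libraries. The correlation between libraries of a group had a range of 0.984 to 0.989 for 36 h, 0.985 to 0.989 for 32 h, and 0.914 to 0.989 on day 16. Values of some single genes are not reported here.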

Additional observations from a re-analysis of the deposited data

Results flagged for a closer look

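The summed share of mitochondrial ribosomal protein genes had a tumour library on day 16 that stood away from the rest of its group, at 0.652% of TPM with the nearest other at 0.602%. It was the only one of 24 group values examined in this way, and chance sets about 1 in 20 such groups apart.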

How the results depend on the processing

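Of 265 values under other settings for shares and counts, 251 kept their size and 14 did not; all 150 values of single members that left the family kept their call. Leaving out 1 library, members called for BAY-876 at 36 h ranged from 0 to 55, members leaving the family from 0 to 1 for BAY-876 at 36 h (1 without BAY-876 replicate 2), 0 to 1 for BAY-876 at 32 h (1 without control replicate 1 or BAY-876 replicate 3) and 1 to 2 for TNF (2 without control replicate 2), and members called for the interaction from 0 to 1 (1 without replicate 3 of both agents). Quantile normalization gave 2 members leaving at 36 h and 34 called for BAY-876 at 32 h, 32 of them higher. With only the groups compared, TNF in BAY-876-treated cells called 12 members, 7 higher and 5 lower. With median-of-ratios scaling BAY-876 in TNF-treated cells called 61. The share difference of BAY-876 at 32 h was 1.50 points without the 5 most abundant members. The cause was not tested. With OT1 libraries 2, 4 and 5 left out, chosen after seeing the data, 20 members were higher and 14 lower and the share difference was 1.42 points. With no filter, quantile normalization or another scaling, the day 16 count was 34 to 42. The replicate number as a block gave 31, 54, 27, 26, 39, 0 and 44 members called in the 7 comparisons. It changed no count by over 1.5 times. Deviations of libraries with the same number correlated at -0.07 to -0.02 at 36 h and -0.19 to 0.12 at 32 h, which does not show pairing. On day 16 these correlations were 0.045 to 0.11, and 7 of 10 libraries correlated best with their own number. Pairing on day 16 is therefore possible, and the main fit there was unpaired. TPM keeps no depth, so low members carry an unknown counting error.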
